A study of Mus musculus with 24 samples.

Results

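Dbp, Tef, Hlf, Nfil3, Ciart, Bhlhe40, Bhlhe41 and Usp2 are 8 clock output regulators, genes that the circadian oscillator drives and that pass its rhythm on. They were taken by symbol from the gene count tables, where each of the 8 had 1 row, of 55416 mouse genes. All libraries were made from polyadenylated liver RNA of male C57BL/6 mice, 24 in 8 groups of 3. CompasSeq compares libraries of all capped RNAs, called all-capped here, with libraries that captured only RNAs carrying an NCIN cap, called captured here. An NCIN (non-canonical initiating nucleotide) cap is a metabolite such as NAD or dephospho-coenzyme A at the start of an RNA, in place of the usual methylguanosine cap. Set 3C, set 3D and the young mice were 2 months old, and the old mice 18 months. Each of these sets had 3 all-capped and 3 captured libraries. The labels do not say how set 3C and set 3D differ, whether the sets share animals, or at what hour and in what feeding state the livers were taken. They also do not say whether replicates are separate animals, so a p-value measures only the spread between these libraries.

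The mammalian clock runs as a feedback loop in which CLOCK and BMAL1 bind E-boxes and switch on their own repressors. Dbp, Tef and Hlf encode the PAR bZIP activators, which bind D-boxes in liver genes of drug and lipid metabolism. Nfil3 encodes the bZIP repressor that occupies the same sites, usually in the opposite phase of the day. Ciart, Bhlhe40 and Bhlhe41 encode repressors of CLOCK and BMAL1. Usp2 encodes a deubiquitinase with a strong daily rhythm in liver. NAD can enter an RNA as its starting nucleotide in place of ATP, so an NAD cap sits where the transcript would start with A.

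Because the members are known for control through E-boxes and D-boxes, and because an NAD cap depends on the starting base, the bases before their transcription starts were read from RefSeq (build GRCm38.p6, which is not the build of the counts). The table held 8 entries for 7 members, all but Bhlhe40. In the 250 bases before the start, the E-box CACGTG, whose reverse complement has the same letters, lay in 4 entries of 3 members, against 6.02% of all 32851 promoters. The D-box TTATGTAA or TTACGTAA, on either strand, was in 0 of the 8 entries and in 0.931% of all promoters. The entries with an E-box are shown, with Dbp beside them because its RNA read nearest to no NCIN cap. Capitals mark the E-boxes, and each run reads 5′ to 3′ up to the last base before the start.
Tef, upstream start (chr15:81802423-81802672, plus strand): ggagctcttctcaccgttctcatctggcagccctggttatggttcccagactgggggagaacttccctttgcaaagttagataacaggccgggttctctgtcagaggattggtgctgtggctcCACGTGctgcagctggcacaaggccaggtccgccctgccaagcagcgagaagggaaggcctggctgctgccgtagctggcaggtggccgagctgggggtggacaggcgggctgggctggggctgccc
Tef, downstream start (chr15:81811164-81811413, plus strand): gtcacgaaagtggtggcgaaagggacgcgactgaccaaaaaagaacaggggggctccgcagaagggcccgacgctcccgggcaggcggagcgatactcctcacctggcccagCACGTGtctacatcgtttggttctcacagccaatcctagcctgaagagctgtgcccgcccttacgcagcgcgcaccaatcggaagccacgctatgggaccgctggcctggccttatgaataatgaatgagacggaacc
Ciart (chr3:95882229-95882478, minus strand): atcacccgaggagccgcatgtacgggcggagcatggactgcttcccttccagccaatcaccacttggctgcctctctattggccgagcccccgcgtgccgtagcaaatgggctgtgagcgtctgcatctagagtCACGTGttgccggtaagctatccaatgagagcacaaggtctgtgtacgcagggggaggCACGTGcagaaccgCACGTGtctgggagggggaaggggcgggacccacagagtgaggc
Bhlhe41 (chr6:145865421-145865670, minus strand): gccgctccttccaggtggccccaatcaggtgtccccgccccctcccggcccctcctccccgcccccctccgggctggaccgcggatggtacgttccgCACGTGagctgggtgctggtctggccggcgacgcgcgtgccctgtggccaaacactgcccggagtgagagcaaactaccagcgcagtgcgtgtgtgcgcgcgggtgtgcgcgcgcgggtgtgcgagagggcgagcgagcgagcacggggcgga
Dbp (chr7:45704997-45705246, plus strand): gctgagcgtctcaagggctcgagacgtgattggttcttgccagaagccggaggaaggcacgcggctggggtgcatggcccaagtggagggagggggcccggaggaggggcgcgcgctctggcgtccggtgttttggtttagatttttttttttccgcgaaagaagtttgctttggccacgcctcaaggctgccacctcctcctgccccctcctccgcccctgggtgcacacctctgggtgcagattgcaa
The E-box began 127 and 138 bases before the Tef starts, 116, 58 and 44 bases before the Ciart start and 153 bases before the Bhlhe41 start. The transcript's annotated starting base was A in 4 of 8 entries, those of Dbp, Tef (both starts) and Nfil3, and A opened 34.4% of all promoters' transcripts. It was G for Ciart, Bhlhe41 and Usp2 and T for Hlf. A match, or its absence, describes these letters only.

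Depth ranged from 6390015 to 18995264 counts on mouse genes per library, lowest in old captured replicate 1. Fly genes, whose origin the labels do not give, took 6.60% to 18.8% of counts in all-capped and 29.7% to 55.4% in captured libraries, and were left out of library sizes. Levels are normalized CPM, counts scaled to library size with TMM over the 24 libraries, and are compared only within a gene, since they are not divided by length. Hepatocyte markers summed to 93896 to 122931 CPM in young and 99912 to 112890.0 CPM in old all-capped libraries, with all 8 markers detected. Of these markers 1 was called higher and 3 lower in old mice (adjusted p under 0.05, edgeR), with a median of log2 -0.37. In captured RNA they summed to 36001 to 37094 CPM in young and 41591 to 50135 CPM in old libraries, with 3 called higher and 3 lower. Use of strand in the counting is not given, so reads of antisense partners cannot be told apart. In bulk liver, fewer cells of a type and less RNA per cell cannot be told apart.

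In old livers 6 of the 8 members were lower and Nfil3, the repressor, was higher in all-capped RNA. The falls were very large for Dbp, Ciart, Usp2 and Bhlhe41, 10.3-fold for Tef and 2.82-fold for Bhlhe40. Of 13124 genes tested with edgeR's quasi-likelihood test (adjusted p under 0.05 over all of them), 13.3% were called lower and 11.7% higher. The members' median log2 difference was -4.27, beside 0.03 over all genes tested. In captured RNA 7 members were lower and 0 higher, where 13.1% of all genes were lower and 12.4% higher, with medians of -3.96 and 0.04. DESeq2 gave the same counts, and 1 member was higher there at an unadjusted p under 0.05, as were 18.9% of all genes. No member's age direction turned under any scaling. Scaled by library size only, 8.69% of all genes were lower and 14.7% higher in all-capped RNA, and 8.22% and 15.8% in captured RNA.

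**Figure D1:**
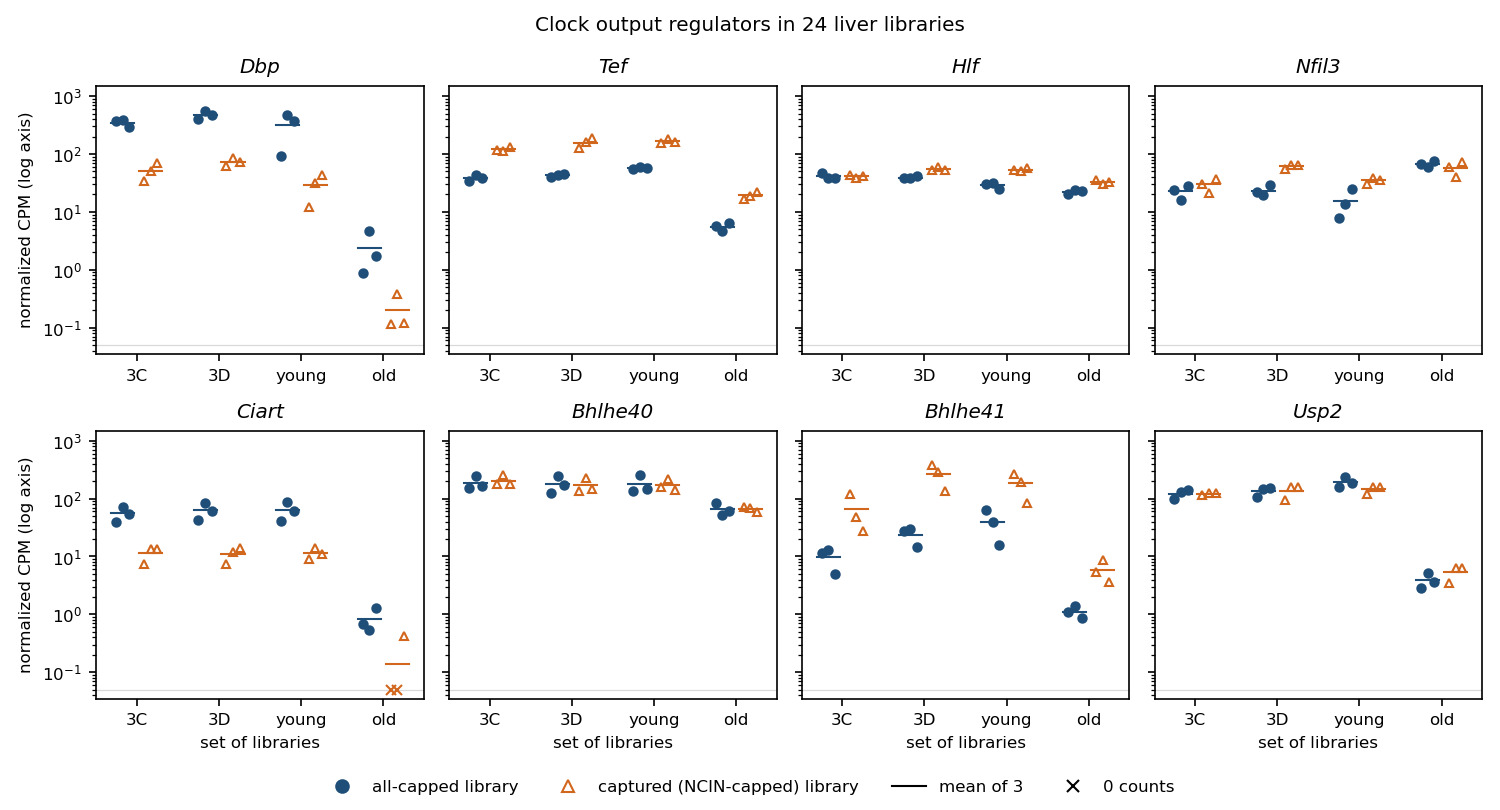
Normalized CPM of each member (log axis) in the set 3C, set 3D, young and old libraries, with filled circles for all-capped and open triangles for captured libraries, bars for the mean of 3 and crosses for 0 counts. The old libraries lie below the 2-month libraries of their kind for 7 members and above them for Nfil3, except that captured Nfil3 of old mice overlaps set 3D.

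Dbp, the PAR bZIP factor best known as a readout of the clock, stood at 93.4, 479.9 and 374 CPM in the 3 young all-capped libraries and at 0.877, 4.65 and 1.75 CPM in the old ones. Young replicate 1 was far below the other 2, yet above every old library. The fitted difference was 134-fold lower in old mice (log2 -7.07 ± 0.57 (SE), adjusted p = 6.05e-07, edgeR). In captured RNA Dbp was at 12.2, 32.0 and 43.4 CPM in young and 0.114, 0.382 and 0.119 CPM in old libraries, the latter from 1, 6 and 2 reads. The fall there was log2 -7.06 ± 1.11 (SE), adjusted p = 8.60e-06 (edgeR). Without old replicate 2, the highest old library of its kind, the log2 difference was -7.92 in all-capped and -7.94 in captured RNA.

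Tef, another PAR bZIP activator, was at 54.4, 58.7 and 56.4 CPM in young and 5.67, 4.65 and 6.38 CPM in old all-capped libraries. The libraries within each age lay close together, and the fall was 10.3-fold (log2 -3.37 ± 0.18 (SE), adjusted p = 1.57e-09, edgeR). Captured Tef was at 153, 183 and 162 CPM in young and 16.5, 19.1 and 22.1 CPM in old mice, a fall of 8.89-fold (log2 -3.15 ± 0.18 (SE), adjusted p = 2.61e-09, edgeR). Hlf, the remaining PAR bZIP gene, had a smaller difference. Its all-capped levels of 30.2, 31.6 and 25.1 CPM in young and 20.4, 24.3 and 22.8 CPM in old mice did not overlap, but the difference did not pass the test (log2 -0.39 ± 0.18 (SE), adjusted p = 0.120, edgeR). Captured Hlf fell from 52.4, 51.3 and 57.9 to 35.4, 30.1 and 33.2 CPM (log2 -0.76 ± 0.18 (SE), adjusted p = 0.00500, edgeR), a call lost under scaling to fly genes (adjusted p = 0.199) or to the 0% spike-in (adjusted p = 0.0540).

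Nfil3, which encodes the repressor at the same D-boxes, went the other way. Its young all-capped libraries were spread, at 7.76, 13.5 and 25.3 CPM, and all lay below the old ones at 68.3, 59.0 and 75.9 CPM. It rose 4.27-fold (log2 2.10 ± 0.31 (SE), adjusted p = 1.34e-04, edgeR). Captured Nfil3 was at 30.9, 38.6 and 35.6 CPM in young and 60.2, 39.5 and 72.0 CPM in old libraries. These groups did not overlap either, yet the difference missed the threshold (log2 0.66 ± 0.31 (SE), adjusted p = 0.121, edgeR). It was called with only the 6 captured libraries in the fit (log2 0.69, adjusted p = 0.0432) or with no filter on low counts (log2 0.64, adjusted p = 0.0390), both by edgeR.

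The 3 repressors of CLOCK and BMAL1 fell by very different amounts. Ciart was at 40.5, 89.0 and 62.2 CPM in young and 0.675, 0.542 and 1.28 CPM in old all-capped libraries, 76.7-fold lower (log2 -6.26 ± 0.46 (SE), adjusted p = 4.26e-08, edgeR). Captured Ciart was at 9.13, 13.9 and 10.8 CPM in young mice. In old mice it gave 0, 0 and 7 reads, so its fitted fall (log2 -6.06) rests on the reads of 1 library and became log2 -10.33 without that library, replicate 3, and -5.45 without replicate 2. Bhlhe41 dropped from 62.7, 39.6 and 16.0 CPM to 1.08, 1.39 and 0.873 CPM (log2 -5.17 ± 0.54 (SE), adjusted p = 2.46e-06, edgeR). Its 3 young libraries were wide apart, while its old ones held 16, 18 and 13 reads. In captured RNA it dropped from 268, 197 and 83.3 to 5.36, 8.79 and 3.62 CPM (log2 -4.99, adjusted p = 1.34e-06, edgeR).

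Bhlhe40 had the smallest fall of the repressors. Its all-capped levels were 135, 261 and 148 CPM in young and 82.6, 51.8 and 61.5 CPM in old mice, 2.82-fold lower (log2 -1.497 ± 0.24 (SE), adjusted p = 2.66e-04, edgeR), and captured RNA gave nearly the same difference (log2 -1.42, adjusted p = 4.69e-04, edgeR). Usp2, the deubiquitinase, was at 156, 235 and 188 CPM in young and 2.83, 5.27 and 3.69 CPM in old all-capped libraries, a 50.1-fold fall (log2 -5.65 ± 0.25 (SE), adjusted p = 3.54e-10, edgeR). Captured Usp2 went from 122, 161 and 158 to 3.54, 6.37 and 6.40 CPM, a 27.4-fold fall (log2 -4.77, adjusted p = 1.96e-09, edgeR).

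**Figure D2:**
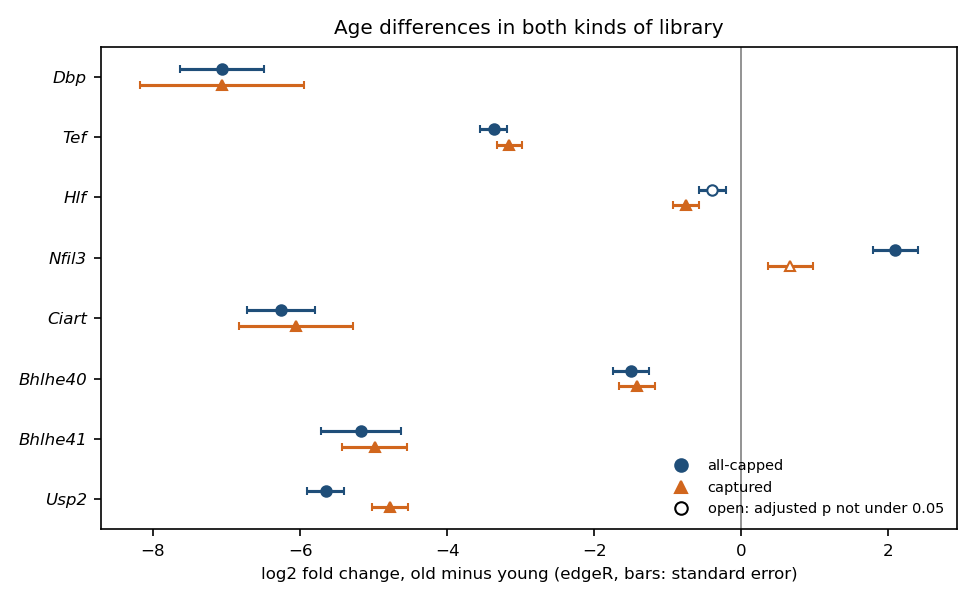
Log2 fold change of each member in old against young mice in all-capped (circles) and captured (triangles) libraries, with bars for the standard error and open symbols where the adjusted p is not under 0.05. The members other than Nfil3 lie to the left of 0 and Nfil3 to the right, and both kinds of library give falls of like size for Dbp, Tef, Ciart, Bhlhe40 and Bhlhe41.

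Set 3C and set 3D, also from 2-month mice, gave the same ordering against the old mice, although they were counted in other tables and are compared here by level only. Whether they share animals with each other or with the young libraries is not in the labels, so they do not stand as independent repeats. All-capped Dbp stood at 370.2, 381 and 299 CPM in set 3C and 407, 545 and 475 CPM in set 3D, 144 and 196 times the old mean. All-capped Usp2 stood at 99.8, 128 and 138 CPM and 107, 145 and 153 CPM, 31.1 and 34.3 times the old mean. Ciart was at 40.2, 72.4 and 54.8 CPM in set 3C and 42.3, 85.5 and 60.4 CPM in set 3D, close to the young libraries. For every member the old all-capped libraries overlapped none of the 3 sets of 2-month libraries, including Hlf, whose all-capped age difference was not called. The share of all genes that separate in this way was not counted, so the separation describes these values only. In captured RNA the exception was Nfil3, whose set 3D libraries at 55.8, 65.0 and 64.1 CPM lay within the range of the old ones.

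Summed markers of some other cell types stood higher in the old libraries. In all-capped RNA the 7 markers of B and plasma cells summed to 23.1 to 60.7 CPM in young libraries, with Mzb1 at 0 counts, and to 302 to 631 CPM in old ones, with 3 of the 5 tested called higher and 0 lower. The 7 markers of stellate cells and fibroblasts summed to 86.8 to 128 CPM in young and 267 to 383 CPM in old libraries, yet only 2 of the 7 were called higher and 1 lower, with a median of log2 -0.20. The 5 erythroid markers summed to 484 to 661 CPM in young and 1063 to 2659.9 CPM in old libraries, without overlap, with 4 called higher and 1 lower. The 3 neutrophil markers were low but higher in old libraries, with sums of 0.725 to 1.47 CPM in young, where Ly6g had 0 counts, and 11.01 to 18.6 CPM in old ones. Of these, 2 of the 2 tested were called higher, with a median of log2 3.81. Sums of the 9 Kupffer cell markers overlapped, at 414 to 842 CPM in young and 764 to 1375 CPM in old libraries, as did those of endothelium (92.1 to 137 and 93.0 to 158 CPM). Of the Kupffer cell markers 2 were called higher and 0 lower (median log2 0.68), and of the endothelial ones 1 and 0 (median log2 -0.13). Both cholangiocyte (28.5 to 35.3 and 40.8 to 58.9 CPM) and T and NK cell markers (3.99 to 11.1 and 10.7 to 11.7 CPM) were low. The cholangiocyte sums did not overlap, yet only 1 of the 5 markers was called higher and 0 lower, with a median of log2 -0.25. The part of any of these cell types in the members' differences was not tested.

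The core clock genes from which the members take their rhythm also differed with age, in both directions. Of 17 listed, 4 were called higher and 8 lower in old all-capped RNA, where 11.7% and 13.3% of all genes were. In captured RNA 5 were higher and 6 lower, where 12.4% and 13.1% of all genes were. The medians of the list were log2 -0.87 and -0.04, beside 0.03 and 0.04 for all genes. The captured median was 0.13 by library size only and 0.01 with scaling to fly genes, beside 0.23 and -0.02 for all genes. Per3, a period gene, fell from 50.4 ± 11.9 to 2.20 ± 1.14 CPM, log2 -4.55 (adjusted p = 2.16e-08). Per2, another, fell from 5.97 ± 0.689 to 1.60 ± 0.166 CPM, log2 -1.93 (adjusted p = 1.92e-04), and Nr1d1, a repressor of the Bmal1 gene, fell from 285 ± 88.1 to 51.0 ± 34.1 CPM, log2 -2.51 (adjusted p = 0.00154). Rora, which activates that gene, rose from 3.34 ± 1.19 to 18.2 ± 5.73 CPM, log2 2.41 (adjusted p = 9.71e-05). In captured RNA Arntl, the gene for BMAL1, rose from 0.906 ± 0.964 to 17.0 ± 2.33 CPM, log2 4.14 (adjusted p = 3.51e-05), and Npas2, a relative of Clock, rose from 0.283 ± 0.201 to 15.2 ± 5.14 CPM, log2 5.70 (adjusted p = 1.71e-06). These are edgeR values.

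Among 9 liver genes known as targets of the PAR bZIP factors or Nfil3, 3 were higher and 3 lower in old all-capped RNA and as many in captured RNA. Their medians were log2 0.07 and 0.02, beside 0.03 and 0.04 for all genes. With scaling to the 0% spike-in they were -0.11 and -0.16, beside -0.14 and -0.13 for all genes. Scaling to fly genes gave -0.02 and -0.17, beside -0.02 and -0.02 for all genes. Alas1, the rate-limiting enzyme of heme synthesis, fell from 831 ± 475 to 193 ± 46.8 CPM, log2 -2.14 (adjusted p = 2.52e-04). Captured Por, the electron donor of cytochromes P450, fell from 283 ± 47.9 to 79.0 ± 13.8 CPM, log2 -1.89 (adjusted p = 2.94e-06), and captured Ppara fell from 41.4 ± 0.962 to 22.8 ± 5.23 CPM, log2 -0.90 (adjusted p = 0.00198). Higher were Cyp2b10, a xenobiotic-inducible P450, from 3.22 ± 2.90 to 73.8 ± 1.95 CPM, log2 4.47 (adjusted p = 4.45e-06), and the hormone gene Fgf21, from 2.04 ± 1.04 to 17.3 ± 3.42 CPM, log2 3.06 (adjusted p = 2.55e-04). Cyp2a4 rose from 0.436 ± 0.0637 to 27.3 ± 7.36 CPM, log2 5.91 (adjusted p = 7.55e-08), though it shares much sequence with Cyp2a5 and its reads could be split between them. All are edgeR values.

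Of 8 other rhythmic liver genes, 1 was higher and 4 lower in all-capped RNA and 1 and 3 in captured RNA, with medians of log2 -0.55 and -0.23. Beside this and the next lists stand all genes, with 11.7% higher and 13.3% lower in all-capped RNA. In captured RNA 12.4% of all genes were higher and 13.1% lower, and the medians of all genes were 0.03 and 0.04. Cdkn1a, a cell cycle inhibitor, rose from 1.33 ± 0.172 to 63.9 ± 14.5 CPM, log2 5.55 (adjusted p = 1.29e-08), and Lpin1, a lipid phosphatase, fell from 104 ± 18.9 to 19.7 ± 9.63 CPM, log2 -2.43 (adjusted p = 2.62e-05), both by edgeR. Of 11 glucocorticoid-responsive genes, 0 were higher and 3 lower in all-capped RNA and 0 and 4 in captured RNA (medians -0.59 and -0.61). In captured RNA 1 was lower by library size only and 2 with scaling to the 0% spike-in. Scaling to fly genes left 1 lower in either kind of library. Dusp1, a phosphatase, fell from 93.8 ± 49.0 to 38.0 ± 6.47 CPM, log2 -1.32 (adjusted p = 0.00629) by edgeR. Of 15 fasting and feeding genes, 6 were higher and 4 lower, and 6 and 3 in captured RNA (medians 0.24 and 0.03). The captured median was -0.12 with scaling to the 0% spike-in, beside -0.13 for all genes. Scd1, a desaturase that makes monounsaturated fat, rose from 797 ± 379 to 3486 ± 516 CPM, log2 2.10 (adjusted p = 1.39e-04), while Pck1, an enzyme of gluconeogenesis, fell from 1218 ± 471 to 323 ± 180.1 CPM, log2 -1.94 (adjusted p = 0.00404), both by edgeR. The labels give neither the hour nor the feeding state, and the part of either in the age differences was not tested.

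Captured and all-capped libraries of the same set were then compared, which asks whether a gene stands higher or lower among NCIN-capped RNAs than among all capped RNAs, relative to all mouse genes. Tef and Bhlhe41 were higher in captured RNA in all 4 sets, except that scaling to fly genes left neither called higher and put Tef below 0 in sets 3C and 3D. Dbp and Ciart were lower in all 4, except that scaling to the spike-in without an NCIN cap put Ciart above 0 in all 4 and Dbp above 0 in all but set 3D. Bhlhe40 and Usp2 were called in none. In set 3C 2 members were called higher and 2 lower, where 37.4% and 34.4% of all genes were. For set 3D the counts were 4 and 2, against 35.5% and 31.5%. Young mice gave 4 and 2, against 31.9% and 29.5%, and old mice gave 3 and 2, against 33.3% and 30.2%. Such calls were common among all genes. The members' medians (log2 -0.02, 0.29, 0.39 and 0.22) stood beside medians of all genes of 0.10, 0.11, 0.14 and 0.19.

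**Figure D3:**
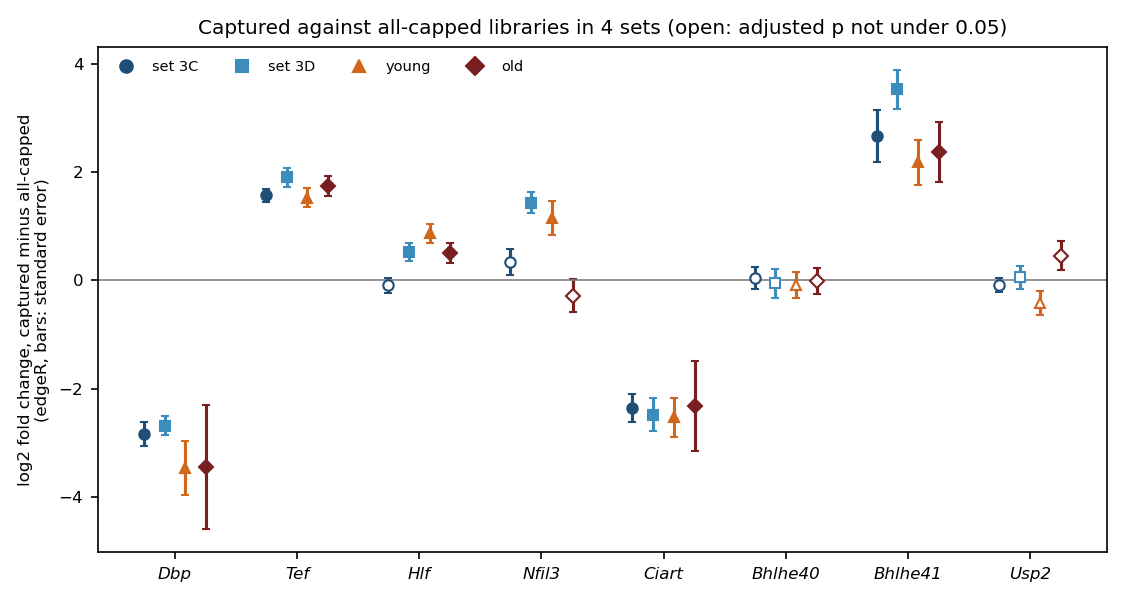
Log2 fold change of captured against all-capped libraries for each member in the 4 sets, with bars for the standard error and open symbols where the adjusted p is not under 0.05. Dbp and Ciart lie below 0 and Tef and Bhlhe41 above 0 in every set, while Nfil3 ranges from -0.29 in old mice to 1.43 in set 3D.

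Dbp stood at 370.2, 381 and 299 CPM in the all-capped and 34.3, 50.7 and 69.2 CPM in the captured libraries of set 3C, with no overlap. That was 7.14-fold lower (log2 -2.84 ± 0.21 (SE), adjusted p = 1.35e-06, edgeR). Its captured level in set 3D was 61.5, 85.6 and 71.4 CPM, 6.42-fold lower (log2 -2.68). In young and old mice, whose values stand above, it was 10.96-fold and 10.9-fold lower (log2 -3.45 and -3.45). The old value had the widest error, 1.15, and ranged from log2 -4.31 without old captured replicate 2 to -2.60 without old all-capped replicate 2.

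Ciart, too, was lower in every set. Its captured libraries held 7.35, 13.6 and 13.3 CPM in set 3C and 7.33, 12.2 and 13.9 CPM in set 3D, below all its all-capped ones. The differences were log2 -2.35, -2.48, -2.52 and -2.32 for sets 3C and 3D and for young and old mice. The old libraries gave 10, 7 and 19 reads in all-capped and 0, 0 and 7 in captured RNA, and the call was lost without old all-capped replicate 3 (log2 -1.89, adjusted p = 0.0584) or old captured replicate 2 (log2 -1.70, adjusted p = 0.0519), and the value was log2 -6.59 without old captured replicate 3, all by edgeR.

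Tef went the other way in every set. All-capped Tef was at 34.7, 42.6 and 39.0 CPM and captured Tef at 118, 114 and 130.0 CPM in set 3C, 2.97-fold higher (log2 1.57 ± 0.12 (SE), adjusted p = 1.44e-06, edgeR). In set 3D the levels were 40.5, 42.8 and 45.7 and 126, 163 and 186 CPM, 3.74-fold higher. In young and old mice captured Tef was 2.88-fold and 3.35-fold higher, at levels that differed by age as given above. The 4 log2 differences lay between 1.53 and 1.90, and in no set did the 2 kinds of library overlap.

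Bhlhe41 had the largest excess in captured RNA of the members. It was at 11.4, 12.9 and 5.07 CPM in all-capped and 119, 48.6 and 28.0 CPM in captured libraries of set 3C, 6.34-fold higher (log2 2.66 ± 0.48 (SE), adjusted p = 6.32e-04, edgeR). Without set 3C captured replicate 1 that was log2 1.92. In set 3D it was at 27.5, 29.8 and 14.5 and 381, 293 and 138 CPM, 11.5-fold higher (log2 3.53 ± 0.36 (SE), adjusted p = 2.48e-05, edgeR). In young and old mice the excess was 4.54-fold and 5.16-fold.

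Hlf and Nfil3 were higher in captured RNA in some sets. Hlf was at 47.9, 39.1 and 38.0 CPM in all-capped and 43.0, 37.9 and 42.3 CPM in captured libraries of set 3C, which overlapped (log2 -0.09 ± 0.14 (SE), adjusted p = 0.587, edgeR). In set 3D it was at 38.0, 38.3 and 41.2 and 54.0, 59.5 and 52.4 CPM and higher (log2 0.52, adjusted p = 0.0135, edgeR). It was higher in young (log2 0.87) and old mice (log2 0.50). The calls in set 3D and in old mice were each lost without any of 3 libraries, with edgeR's adjusted p between 0.0580 and 0.0928. Both were also lost with no filter on low counts (adjusted p = 0.0576 and 0.0846), and the old one with only its 6 libraries in the fit (adjusted p = 0.0881), by edgeR. Nfil3 was at 23.9, 15.9 and 27.9 CPM and 31.0, 21.0 and 37.8 CPM in set 3C (log2 0.34 ± 0.25 (SE), adjusted p = 0.233, edgeR). In set 3D it was higher, from 21.7, 19.2 and 28.7 CPM in all-capped libraries to the captured level given above (log2 1.43 ± 0.19 (SE), adjusted p = 1.12e-04, edgeR). It was higher in young captured libraries (log2 1.15, adjusted p = 0.00429, edgeR) and not called in old ones (log2 -0.29, adjusted p = 0.423, edgeR). With the replicate number as a block, the set 3C difference of Nfil3 was called too (log2 0.34, adjusted p = 0.0387, edgeR).

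Bhlhe40 and Usp2 stood near the middle of all genes. Bhlhe40 was at 153, 246 and 166 CPM in all-capped and 178, 256 and 176 CPM in captured libraries of set 3C, and at 127, 241 and 170.1 and 133, 231 and 145 CPM in set 3D. Its log2 differences were 0.05, -0.05, -0.09 and -0.01 in the 4 sets, with standard errors from 0.20 to 0.26. Captured Usp2 was at 114, 123 and 124 CPM in set 3C and 96.0, 159 and 158 CPM in set 3D, and its differences were log2 -0.08 and 0.05. In young mice it was -0.42 (adjusted p = 0.120) and in old mice 0.45 (adjusted p = 0.144), both by edgeR. With the replicate number as a block both were called, lower in young (log2 -0.41, adjusted p = 0.00678, edgeR) and higher in old mice (log2 0.43, adjusted p = 0.0400, edgeR). The young call was also made with only its 6 libraries in the fit (log2 -0.43, adjusted p = 0.0489, edgeR). The old call was also made without old all-capped replicate 2 (log2 0.71) or old captured replicate 1 (log2 0.66).

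The size of these values depends on the scaling. With the spike-in that carries 0% NCIN as the scale, the median of all genes, between 0.10 and 0.19 with TMM, lay between 2.79 and 3.96 on the log2 scale, and 77.5% to 93.0% of genes were called higher and 0.0914% to 1.04% lower. Dbp then lay at 0.23 for set 3C, -0.01 for set 3D, 0.38 for young and 0.43 for old mice, and Ciart between 0.11 and 1.38, all below that median. Scaling to fly genes moved the median to between -2.66 and -1.18, with 1.16% to 7.91% of genes called higher and 48.8% to 73.3% lower. With that fly-gene scale Tef lay between -0.91 and 0.36 and Bhlhe41 between 0.62 and 0.94, all above the fly-scaled median. Scaling by library size only gave 47.1% to 56.6% of genes higher and 17.1% to 20.5% lower.

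Core clock genes lay above all genes in captured RNA, and targets of the PAR bZIP factors or Nfil3 below them. Of the core clock genes tested, 9 of 15 were called higher and 2 lower for set 3C, 8 of 13 and 2 for set 3D, 11 of 17 and 1 for young mice and 13 of 17 and 1 for old mice. Their median differences were log2 1.48, 1.45, 1.41 and 1.77, except that with scaling to fly genes those of sets 3C and 3D were -0.38 and -1.42. Of the targets, 5 of 7, 6 of 7, 7 of 9 and 8 of 9 were called lower in the same order. Their medians were log2 -0.96, -1.14, -1.51 and -1.76, except that scaling to the 0% spike-in put them between 1.53 and 2.24. Under each of these scalings the clock list's median stayed above that of all genes and the targets' median below it. A median below all genes was not particular to the targets. With TMM that of hepatocyte markers was log2 -1.28, -1.28, -1.09 and -0.72 in the same order. For Kupffer cell markers it was -1.91, -1.895, -1.62 and -1.73. Endothelial markers lay above all genes, at 0.27, 0.58, 0.70 and 0.25.

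Whether capture differed between ages or sets was tested by the interaction. For age, 0 members were called in either direction, where 0% of 13124 genes were higher and 0.0152% lower. For set 3D against set 3C, 0 members were called, where 0.189% of 12164 genes were higher and 0.411% lower. At an unadjusted p under 0.05, 2 members had an age interaction and 2 a set interaction with edgeR, as did 5.14% and 13.3% of all genes. DESeq2 also called 0 members in either, where it called 0.0153% higher and 0.198% lower by age and 1.27% and 1.12% by set. Of the members, Nfil3 had the largest value in both. Its age interaction was log2 -1.43 ± 0.44 (SE), adjusted p = 0.746 (edgeR). With the replicate number as a block it was log2 -1.59 (adjusted p = 0.00225, edgeR), where 0.236% of all genes were called higher and 0.556% lower. In that blocked fit captured minus all-capped Nfil3 was log2 1.27 in young and -0.32 in old mice. The set interaction of Nfil3 was log2 1.01 ± 0.33 (SE), adjusted p = 0.207 (edgeR). With the block it was log2 1.02 (adjusted p = 0.00783, edgeR), a larger excess in set 3D. The blocked set fit called 2.38% of all genes higher and 3.27% lower. Usp2 followed in age, with log2 0.87 (adjusted p = 0.950) and, with the block, 0.84 (adjusted p = 0.0746), both by edgeR. For Dbp, Tef, Ciart, Bhlhe40 and Bhlhe41 the age interaction lay between 0.00 and 0.22, with standard errors from 0.25 to 1.25. Leaving out single libraries turned its sign for all of these but Tef, with Dbp between -0.87 (without old captured replicate 2) and 0.86 (without old all-capped replicate 2) and Ciart at -4.07 without old captured replicate 3.

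Spike-in RNAs with stated NCIN shares put the captured-to-all-capped ratio of each gene on a percentage scale. A ratio here is the gene's share of mouse-gene counts in a captured library divided by the average of its shares in that set's 3 all-capped libraries. The spike-in with 0% NCIN had ratios of 0.221 ± 0.0402, 0.281 ± 0.125, 0.124 ± 0.0125 and 0.121 ± 0.0213 (SD, n = 3) for sets 3C and 3D and for young and old mice. The ratios of Dbp were 0.163, 0.258 and 0.337 for set 3C and 0.211, 0.302 and 0.235 for set 3D. They were 0.0697, 0.167 and 0.242 for young and 0.0767, 0.280 and 0.0802 for old mice. In each set these lay on both sides of the mean ratio of the 0% spike-in. Read on the spike-in line of each captured library, Dbp had an estimated NCIN share of 0.425% ± 1.32 (SD, n = 3) for set 3C and 0.226% ± 0.938 for set 3D. The young reading was 0.475% ± 1.38 and the old one -0.737% ± 2.27. All 4 lay within 1 SD of 0%.

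**Figure D4:**
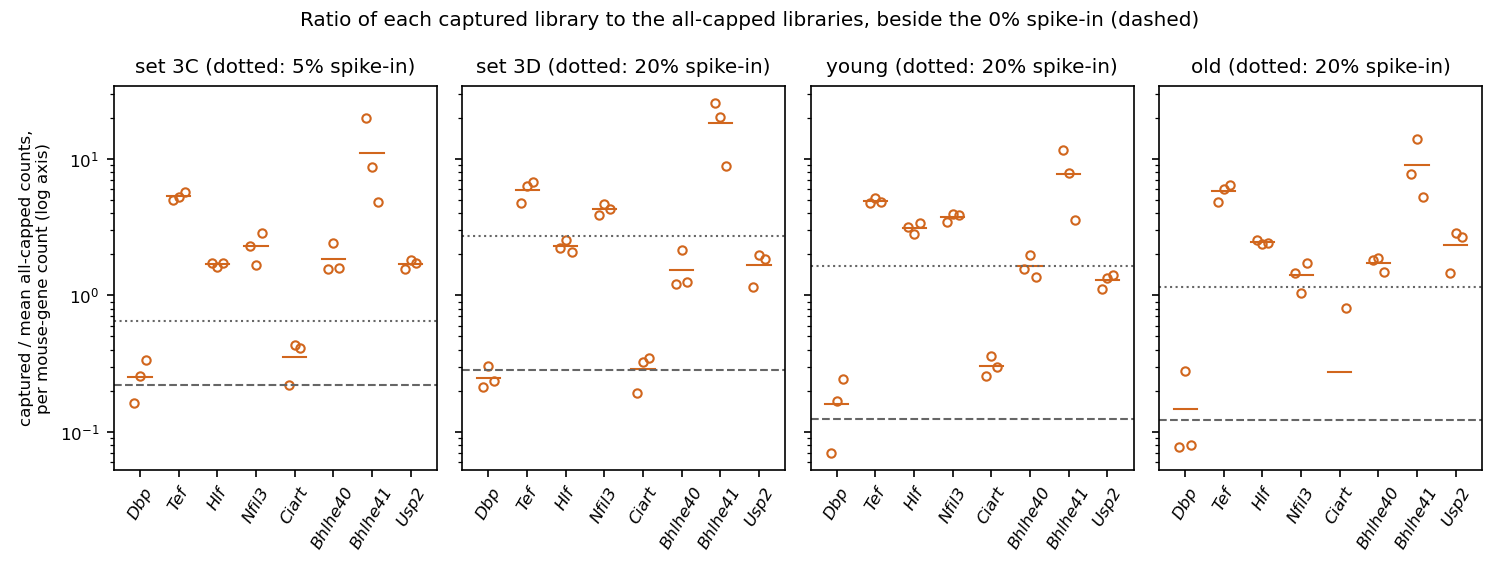
Captured-to-all-capped ratio of the 8 members (log axis), 1 per captured library, as open circles with a bar at the mean of 3, beside the mean ratio of the 0% spike-in (dashed) and of the highest spike-in of the set (dotted). The 2 old captured libraries with 0 reads of Ciart cannot be drawn, Dbp lies around the dashed line, and Tef and Bhlhe41 lie above the dotted line in every set.

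Ciart was the next lowest member in every set, with estimates of 1.63% ± 1.86, 0.491% ± 0.486, 2.39% ± 0.723 and 4.76% ± 14.1 (SD, n = 3). Its mean was well above its SD in young mice only, and the old mean came from 1 library, without which it was -3.34%. Between 1.46% and 6.10% of tested genes had estimates below Dbp, and between 7.12% and 10.9% below Ciart. At the other end stood Tef, at 60.4% ± 7.32, 45.1% ± 2.37, 63.7% ± 2.997 and 132% ± 59.6 in the same order of sets. Bhlhe41 was higher still, at 125% ± 81.9, 149.6% ± 86.4, 103% ± 61.8 and 180.4% ± 31.5. Means above 100% cannot be shares, and all readings of both genes lie beyond the highest spike-in, 5% in set 3C and 20% in the other sets, so they rank the genes but give no level.

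The remaining members lay between these pairs. Hlf read 17.3% ± 1.26, 16.6% ± 3.70, 40.0% ± 4.71 and 54.5% ± 23.6, and Nfil3 read 24.3% ± 7.21, 32.5% ± 3.62, 48.4% ± 0.719 and 31.8% ± 19.3 (SD, n = 3). Bhlhe40 read 19.5% ± 6.94, 10.5% ± 4.25, 20.1% ± 3.99 and 36.2% ± 13.4. Usp2 read 17.5% ± 2.91, 11.2% ± 2.10, 15.4% ± 1.29 and 48.7% ± 24.2. Of these, the mean readings of Hlf, Bhlhe40 and Usp2 in set 3D and of Usp2 in young mice lay within the spike-in range. The median of all tested genes moved from 11.5% in set 3D to 39.5% ± 15.4 (SD over the 3 captured libraries) in old mice, and no test was made between sets. The old median lies beyond the highest spike-in, 20%. The spike-in lines had slopes of 0.0355, 0.0822 and 0.0333 in old and 0.0696, 0.0785 and 0.0793 in young captured libraries. The 20% spike-in had a ratio of 1.15 ± 0.562 in old and 1.65 ± 0.0968 in young mice (SD, n = 3). A lower slope turns a ratio above the intercept into a higher percentage, so higher old readings need not be higher NCIN shares. Leaving out young all-capped replicate 3, the highest young all-capped library for Nfil3, put its young reading at 73.5%, and leaving out replicate 1 put it at 39.0%. It was 60.5% with each captured library over its own all-capped one and 65.2% without the highest spike-in, so the SD of 0.719 over captured libraries leaves out the spread of the all-capped ones.

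The 3 sets of 2-month libraries were compared in all-capped RNA. Whether these sets share animals is not in the labels. Same-numbered libraries of sets 3C and 3D deviated together, as did those of set 3D and young mice. The comparison therefore gives the members' spread between these libraries at 1 age, which may not be that between mice. Set and table cannot be told apart in it. Between set 3D and set 3C 0 members were called, where 0.879% of 11719 genes were higher and 0.0171% lower; 1 member was higher at an unadjusted p under 0.05, as were 5.01% of genes, and DESeq2 called 0, against 1.6% of genes higher and 0.282% lower. Bhlhe41 came nearest, at 27.5, 29.8 and 14.5 CPM in set 3D and 11.4, 12.9 and 5.07 CPM in set 3C, with no overlap (log2 1.28 ± 0.41 (SE), adjusted p = 0.257, edgeR), and was called with the replicate number as a block (log2 1.31, adjusted p = 0.00754, edgeR). Between young mice and set 3C 2 members were higher and 1 lower in young mice, where 4.38% and 6.42% of genes were. Bhlhe41 was 3.81-fold higher (log2 1.93 ± 0.41 (SE), adjusted p = 0.00729, edgeR). Hlf was lower (log2 -0.59 ± 0.15 (SE), adjusted p = 0.0195, edgeR), and Tef higher (log2 0.47, adjusted p = 0.0483, edgeR), though at -0.35 under scaling to fly genes. The Hlf call was lost without set 3C replicate 1 (adjusted p = 0.126) or young replicate 3 (adjusted p = 0.0863) or with no filter (adjusted p = 0.0548), and the Tef call was lost without any of 10 of the 12 libraries, with adjusted p by edgeR up to 0.210, or with no filter on low counts (adjusted p = 0.167). Between young mice and set 3D 0 members were called, where 1.02% were higher and 4.1% lower. There 2 members were higher and 1 lower at an unadjusted p under 0.05, as were 8.69% and 10.9% of genes, and DESeq2 called 1 lower (Hlf), as it did 5.86% of genes. Nfil3 was lower in young mice against either set once young replicate 3 was left out (log2 -1.16 against set 3C and -1.19 against set 3D, adjusted p = 0.0172 and 0.0235, edgeR).

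Within the 6 groups of 2-month libraries, same-numbered libraries tended to hold the same place for some members. All-capped and captured libraries of a set deviated together, so the 6 groups are not 6 separate looks. Replicate 2 was the highest of its group for Bhlhe40 in 6 of 6 groups and for Ciart in 5. Replicate 3 was the lowest for Bhlhe41 in 6 of 6, and replicate 1 was the lowest for Ciart and Usp2 in 6 of 6 and for Dbp and Tef in 5. For Hlf no replicate was the highest in more than 2 groups or the lowest in more than 3. Nor was any the lowest for Nfil3, or the highest for Tef or Usp2, in more than 3. The labels do not say what a number stands for, and these counts carry no test. The range within a group was wide for some members at 1 age: Bhlhe41 spanned 16.0 to 62.7 CPM in young all-capped libraries, and Dbp 93.4 to 479.9 CPM.

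Genes with the most alike profile were sought over the 12 all-capped libraries, by the root mean square difference between log2 levels centred on each gene's mean, among 11719 genes. Nearest to Bhlhe41 was the period gene Per3, at 0.619, beside 2.06 for the median gene. Nearest to Dbp were Mup7 at 0.782 and Mup-ps20 at 0.879 (median gene 3.39), which belong to the major urinary protein family, whose near-identical copies make counts uncertain. Nearest to Ciart were Serpina1e at 0.461, of another multigene family, and Crybb3 at 0.559 (median gene 2.77). Nearest to Usp2 were Eif4ebp3 at 0.453, which encodes a binding protein of translation factor eIF4E, and Enho at 0.476 (median gene 2.37). Tef was nearest to Ces3b, a carboxylesterase, at 0.198 and Fbxo21 at 0.264 (median gene 1.44). Bhlhe40 was nearest to Aldoc, an aldolase, at 0.195 (median gene 0.888), Nfil3 to Phf11a at 0.325 (median gene 1.06) and Hlf to Polr1c at 0.136 (median gene 0.634). All genes share these libraries and their age contrast, and likeness says nothing of shared function.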

How the data were processed

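The authors deposited raw counts for each gene in 24 liver libraries, as whole numbers without normalization. Per the submitters' processing notes, Trim Galore 0.6.6, STAR 2.7.6a, featureCounts 2.0.1 and Salmon were used with GRCm39 and BDGP6; their roles, the annotation and use of strand are not given in the sources used here. The transcript table was not used, since its identifiers could not be tied to the members with the tables at hand. Of 55416 mouse gene identifiers, 52083 had a symbol. The 17612 fly genes and the spike-ins stayed out of library sizes and tests.

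After filterByExpr and TMM scaling, edgeR 4.0.16 (R 4.3.3) gave quasi-likelihood tests, with group means as the design and Benjamini-Hochberg adjustment over all genes tested at 0.05. Sets 3C and 3D were each fitted alone, and together for their interaction. Age comparisons used 1 fit of 12 libraries, and differences between sets used 1 fit of the 12 all-capped libraries. DESeq2 1.42.0, other scalings and filters, a replicate block and leaving out each library were alternatives. Tests were checked on simulated data. Replicates of a group differed by more than counting error (chi-square per degree of freedom from 12.1 to 59.0). Within a set, all-capped and captured libraries with the same number deviated together from their group means (correlations of 0.133 to 0.507 over 7408 genes). So did the all-capped libraries of sets 3C and 3D (0.154 to 0.362) and of set 3D and young mice (0.132 to 0.378), but not libraries of different ages. The main fits held no block. As an alternative only, the replicate block used the number within each set for capture comparisons and interactions. For age the block used the number within each kind of library, although numbers did not pair across ages. Between sets it used the number over all 12 all-capped libraries, old ones included. Blocked values stand where they changed a call.

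NCIN percentages were read on a line with intercept through the spike-in ratios of each captured library, and assume that spike-ins and liver RNA are captured alike. All 8 members are named; from each gene list, and for each age comparison, up to 4 called genes of largest log2 change could be named, if their ages did not overlap and their counts averaged 50 or more. For each member, the 2 genes of most alike profile could be named. Members and lists were chosen with earlier results of these data known.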

Additional observations from a re-analysis of the deposited data

Results flagged for a closer look

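Nfil3 gave 2 results that stood out because the effect of capture differed between groups when the replicate number was kept as a block. In the blocked fit of edgeR captured minus all-capped Nfil3 was log2 1.27 in young and -0.32 in old mice, the latter not called. The age interaction was log2 -1.59 (adjusted p = 0.00225 in that fit), against log2 -1.43 and an adjusted p of 0.746 without the block. By age the blocked fit called 0.236% of all genes higher and 0.556% lower. The captured excess of Nfil3 was larger in set 3D than in set 3C, with an interaction of log2 1.02 (adjusted p = 0.00783 in the blocked fit of edgeR). Without the block that was log2 1.01 with an adjusted p of 0.207. By set the blocked fit called 2.38% of all genes higher and 3.27% lower. In young mice Nfil3 spanned 7.76 to 25.3 CPM in all-capped and 30.9 to 38.6 CPM in captured libraries, and in old mice 59.0 to 75.9 CPM and 39.5 to 72.0 CPM. The part of that spread in the difference was not tested.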

How the results depend on the processing

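Over 316 values of single members in old against young mice, in either kind of library and under every alternative that gave a value, 312 kept their direction and their side of the threshold, and none turned. Captured Nfil3 was then called higher, making 1 member higher, with no filter on low counts or with only the 6 libraries compared, and captured Hlf lost its call once fly genes or the 0% spike-in set the scale. A filter of at least 10 counts in every library left Dbp and Ciart untested in old and young mice, so that 0 members were lower in captured RNA of young or of old mice. Depth limits both genes in old captured libraries, where they had 9 and 7 reads in all.

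Comparisons of captured with all-capped libraries turned with the scaling, by which all genes shift together. Scaled to the 0% spike-in, 7 members were higher for set 3C, 7 for young and 6 for old mice, where 89.9%, 93.0% and 92.4% of all genes were. With that scale 0 members were lower for any set, where 0.0914% to 1.04% of all genes were. Dbp became 0.23 (set 3C), 0.38 (young) and 0.43 (old) on the log2 scale, and Ciart 0.75, 0.11, 1.29 and 1.38 (sets 3C and 3D, young, old). Bhlhe40 became 2.64 (set 3D), 3.74 (young) and 3.70 (old), Usp2 2.99 (set 3C) and 3.38 (young), Hlf 2.95 (set 3C) and Nfil3 3.49 (old). Scaled to fly genes, 0 members were higher for any set, where 1.16% to 7.91% of all genes were. With fly genes 6 members were lower for set 3C, 7 for set 3D, 4 for young and 4 for old mice. Of all genes 69.0%, 73.3%, 48.8% and 48.8% were lower in the same order. Tef became -0.34 and -0.91 (sets 3C and 3D), Hlf -2.25, -0.48 and -0.84 (set 3D, young, old), Nfil3 -1.58, -1.36 and -0.35 (sets 3C and 3D, young), Bhlhe40 -1.83 (set 3C) and Usp2 -2.76 (set 3D). By library size only, 6 members were higher for set 3C and 5 for old mice, where 1 was lower. Of all genes 56.6% were higher for set 3C and 49.0% for old mice, where 18.3% were lower. By library size Hlf became 0.76 and Usp2 0.77 in set 3C, and Bhlhe40 0.71 in young and 0.79 in old mice. With only its 6 libraries, old mice had 1 member lower, since Ciart could not be tested, where 32.8% of all genes were lower.

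The replicate block gave 1 member lower in the age interaction, as did no filter, and 1 higher in the set interaction (Nfil3 each time). By age 0.556% of all genes were lower with the block and 0.122% with no filter. By set 2.38% were higher with the block. Between set 3D and set 3C the block gave 1 higher member, Bhlhe41, as did no filter, where 0.981% and 0.839% of all genes were higher. In young mice against set 3C, whose numbers did not pair, it also called Usp2 higher (log2 0.59, adjusted p = 0.0112, edgeR), as did either filter, DESeq2, the 6 libraries alone and leaving out young replicate 1 or old replicate 2. It changed no other call than those in the text. In that comparison scaling to fly genes gave 0 higher and 3 lower members and Tef at -0.35, where 0.427% of all genes were higher and 35.3% lower. No filter gave 0 lower there, against 3.58% of all genes. Young mice against set 3D had 1 member lower with no filter (Dbp) or with DESeq2 (Hlf), against 2.65% and 5.86% of all genes. Leaving out single libraries gave 1 to 2 members lower in captured RNA of old mice, 1 to 3 higher and 0 to 1 lower in young mice against set 3C, and 0 to 1 lower against set 3D. Scaling to the 0% spike-in was not run between sets, whose spike-in mixes differ, nor were comparisons of transcripts.

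The members' median estimated NCIN share was 17.5% in set 3C, 13.3% with a line through the origin. In young mice it was 30.1%, 40.1% without the highest spike-in, 27.3% with each captured library over its own all-capped library, and 27.4% to 32.1% without single libraries. All these medians lie beyond the highest spike-in, 5% in set 3C and 20% in young mice, and are extrapolations. A line through the origin put Dbp at 1.77% to 2.24% over the 4 sets. Set 3C has no line without its highest spike-in.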
